A study of Mus musculus with 18 samples.

Results

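Fatty acids are burned in the liver by 2 chains of enzymes, one in mitochondria and one in peroxisomes, and 37 genes of these chains, of ketone body synthesis, of the acyl-CoA thioesterases and of other targets of the nuclear receptor PPARα were described here in mouse liver. A gene was taken in by its symbol in the platform annotation, and its brightest probe set on average over the 18 arrays stood for it. Of the 37 genes, 35 were measured, among 12394 named genes in all: 18 of 18 mitochondrial genes, 6 of 6 peroxisomal genes, 6 of 6 thioesterases and 5 of 7 other PPARα targets. The annotation names Cyp4a10 only on a probe set that it shares with other genes, and names no probe set for Acsl1 alone, so neither was measured on its own.

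Livers came from male mice of the C57BL/6J background, 10 to 16 weeks old, and 1 array was run for each liver, with 3 arrays in each of 6 groups. The groups were wild type (WT), liver Fxr knockout (LiverKO) and whole body Fxr knockout (WBKO) mice, each given vehicle or GW4064, a synthetic agonist of the farnesoid X receptor (FXR, gene Nr1h4). LiverKO mice carried floxed Fxr alleles and an albumin-driven Cre, which acts in hepatocytes, so that the labels place the loss in these cells alone. The labels give 2 oral gavages of 150 mg per kg and removal of the liver 2 hours after the last one, whereas the methods, which describe WT mice, give another dose and schedule and an overnight fast. Which of these was followed could not be settled from the values, and whether the knockout mice were fasted is not given in the sources used here.

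In the mitochondrial pathway, long-chain fatty acids enter as carnitine esters and are then shortened in cycles of dehydrogenation, hydration, a second oxidation and thiolysis, and the acetyl-CoA that is released can be turned into ketone bodies. Peroxisomes shorten very long chains by a similar cycle, and acyl-CoA thioesterases split acyl-CoA into free fatty acid and coenzyme A in several compartments. PPARα, which is active in fasting, is known to drive many of these genes in hepatocytes, where it binds with RXR to a direct repeat of a hexamer spaced by 1 base, while FXR with RXR is known for an inverted repeat of the same hexamer.

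The promoters of the 4 neighbouring cytosolic, mitochondrial and peroxisomal thioesterase genes Acot1, Acot2, Acot4 and Acot3 are printed because Acot1 carries the largest difference among these genes and none of its neighbours passed the test, and that of Fabp1 because it held the one direct repeat found. Each is the RefSeq window (GRCm38.p6, plus strand) from 250 bases before to 50 bases after a transcript's start: Acot1 at chr12:84009252-84009551, Acot2 at chr12:83987611-83987910, Acot4 at chr12:84038129-84038428, Acot3 at chr12:84051894-84052193 and Fabp1 at chr6:71199629-71199928. The window of Acot4 lies inside the annotated gene, which begins upstream at base 84037254. In Acot4 and Acot3, capitals mark the hexamer AGGTCA of the minus strand, which reads TGACCT on the plus strand as printed. In Fabp1 they mark the direct repeat. Acot1 and Acot2 hold no match and have no capitals.
Acot1: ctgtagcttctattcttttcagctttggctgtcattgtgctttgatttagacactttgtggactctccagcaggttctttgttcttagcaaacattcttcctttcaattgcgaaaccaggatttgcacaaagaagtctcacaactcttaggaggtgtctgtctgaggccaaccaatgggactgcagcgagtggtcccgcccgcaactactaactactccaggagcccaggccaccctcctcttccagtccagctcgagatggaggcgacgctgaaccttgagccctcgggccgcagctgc
Acot2: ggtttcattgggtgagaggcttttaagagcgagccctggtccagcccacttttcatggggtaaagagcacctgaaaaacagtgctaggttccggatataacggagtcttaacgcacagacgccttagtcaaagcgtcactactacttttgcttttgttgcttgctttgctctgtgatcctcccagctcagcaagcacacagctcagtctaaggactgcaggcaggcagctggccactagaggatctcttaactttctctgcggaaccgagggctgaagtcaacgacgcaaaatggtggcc
Acot4: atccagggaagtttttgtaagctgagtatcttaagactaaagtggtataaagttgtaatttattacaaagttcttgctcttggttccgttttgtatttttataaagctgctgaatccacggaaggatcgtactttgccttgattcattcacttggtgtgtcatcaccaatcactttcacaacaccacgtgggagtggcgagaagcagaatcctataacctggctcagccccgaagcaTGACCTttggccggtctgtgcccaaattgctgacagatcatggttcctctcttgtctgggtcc
Acot3: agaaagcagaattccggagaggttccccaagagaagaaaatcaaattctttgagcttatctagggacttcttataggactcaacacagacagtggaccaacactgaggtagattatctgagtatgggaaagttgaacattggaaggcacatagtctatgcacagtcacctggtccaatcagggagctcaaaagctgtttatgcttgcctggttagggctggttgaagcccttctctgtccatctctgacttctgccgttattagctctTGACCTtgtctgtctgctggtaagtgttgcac
Fabp1: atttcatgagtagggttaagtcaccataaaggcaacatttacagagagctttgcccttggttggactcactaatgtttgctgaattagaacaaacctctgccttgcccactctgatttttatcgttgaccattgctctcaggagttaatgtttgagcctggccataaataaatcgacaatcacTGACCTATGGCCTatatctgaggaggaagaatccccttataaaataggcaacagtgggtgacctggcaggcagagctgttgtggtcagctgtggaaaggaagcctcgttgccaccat

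Both strands of 33 windows of 30 of the measured genes were searched. The hexamer AGGTCA was present in 8 windows (24.2%), those of Acadm, Acadvl, Cpt1a, Fabp1, Acot4, Acot12 and both windows of Acot3, against 16.3% of all 32851 mouse windows of the same length. The direct repeat AGGNCANAGGNCA was found in the window of Fabp1 alone, against 0.381% of all windows. It lay on the minus strand at bases -67 to -55 from the start, where the plus strand reads TGACCTATGGCCT. The strict direct repeat AGGTCANAGGTCA was in 0 of the 33 windows, the strict inverted repeat AGGTCANTGACCT in 0 and its looser form AGGNCANTGNCCT in 0, against 0.0396%, 0.00913% and 0.0883% of all windows. The hexamer is part of each repeat, so these matches overlap. They describe letters in these windows only.

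The table of values was checked before the genes were read. Nr1h4 lay between 8.83 and 9.39 in WT livers with vehicle and between 8.94 and 9.15 with GW4064, and between 3.98 and 4.69 in the knockout livers (log2 signal throughout, from RMA), so the targeted gene matched the labels. Summed hepatocyte markers (9 of 10 measured) ran from 17.27 to 17.40 over all arrays. In LiverKO livers with vehicle they were 17.27 to 17.33, below and without overlap with WT livers with vehicle (17.35 to 17.40). Array 1 of WT with GW4064 and array 3 of WBKO with GW4064 stood apart from the rest by the width of their relative expression (interquartile range 0.2585 and 0.2311, against at most 0.1969 in the others). In WT livers with GW4064, the median of 15 acute-phase genes, which the liver makes in inflammation, was 1.14, 0.81 and 0.11 above the WT vehicle mean in arrays 1, 2 and 3, against -0.07 to 0.03 with vehicle. The summed endothelial markers (8 of 8 measured) were 9.87 to 10.52 there, against 10.61 to 10.72 with vehicle, and the stellate cell markers (7 of 8) 9.67 to 10.63, against 10.72 to 11.08, so that neither list overlapped between these groups. Macrophage markers (7 of 8) were 10.95 to 12.05, against 11.30 to 11.56, and adipocyte markers (5 of 7) summed to 7.71 to 8.35 over all groups. The part of these shifts in the results on WT livers was not tested. In whole liver, fewer cells of a type and less RNA per cell cannot be told apart.

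In WT livers, GW4064 lowered Acot1, a cytosolic thioesterase for long-chain acyl-CoA, and none of the other 34 genes passed the test. Acot1 was the 1 of 35 genes that passed an adjusted p of 0.05 (limma over all genes, Benjamini-Hochberg), where 0.194% of all genes did. At an unadjusted p of 0.05, 12 of 35 passed, 10 lower and 2 higher, against 12.6% of all genes, and 3 of these (Acot1, Ehhadh and Pdk4, all lower) were also past 1.5 fold, against 1.71%. The median difference of the 35 genes was -0.07, against 0.00 for all genes, with 22 of 35 below 0, against 6347 of all 12394 genes. In 8 of 35 genes (22.9%) the 3 arrays with GW4064 lay below all 3 with vehicle and in 0 they lay above, while 14.7% of all genes did not overlap in either direction. These 8 were Acads, Hadha, Acaa2, Eci1, Etfa, Ehhadh, Acot1 and Fgf21. Values by array are given for Acads, Hadha, Eci1, Etfa, Bdh1, Acot3, Fabp1 and Cyp4a14 as well, which were chosen after their values were seen.

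Acot1 read 6.81, 7.98 and 7.20 in the WT livers with vehicle and 5.22, 5.59 and 6.39 with GW4064. It fell by 1.60 (SE 0.286, 3.03-fold lower, adjusted p = 0.0433, n = 3 per group). The groups did not overlap, but their spread was wide, with an SD of 0.59 and 0.60. The call was lost without any 1 of the WT vehicle arrays (adjusted p = 0.0716, 0.129 and 0.141) and without array 1 or 2 with GW4064 (0.232 and 0.106), and also without the 2 arrays that stood apart (0.176, with a difference of -1.34). In LiverKO livers Acot1 was 7.27, 7.28 and 7.13 with vehicle and 7.31, 7.51 and 7.72 with GW4064. In WBKO livers it was 7.77, 7.21 and 8.09 with vehicle and 7.40, 7.30 and 7.09 with GW4064. All 3 WT arrays with GW4064 were thus below the 15 others. The GW4064 effect in WT minus that in LiverKO was -1.89 (SE 0.404, unadjusted p = 0.000232, adjusted p = 0.437), and minus that in WBKO -1.17 (SE 0.404, adjusted p = 0.476), so neither difference of effects passed. The probe set named for Acot1 alone was used, and a further probe set that the annotation gives to both Acot1 and Acot2 was not.

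None of the neighbours of Acot1 passed. Acot2, the mitochondrial enzyme, differed by -0.10 (95% interval -0.41 to 0.21) in WT livers with GW4064, Acot3, a peroxisomal enzyme, by -0.05 (-0.75 to 0.65) and Acot4, also peroxisomal, by 0.35 (-0.28 to 0.98). Acot3 and Acot4 spread widely between arrays of 1 group, so that only a large difference could have been seen in them. Acot2 read 4.83 to 5.42 over all arrays, among the 40% dimmest genes, so its narrow interval may miss a change. Acot8, a peroxisomal thioesterase of broad substrate range, differed by 0.00 (-0.17 to 0.18), and Acot12, a cytosolic acetyl-CoA thioesterase, by 0.14 (-0.16 to 0.44). Over the 6 thioesterases, the median difference was -0.02, with 3 below 0 and 3 above. In both knockouts, 0 of 6 passed, at an unadjusted p of 0.05 as well. In LiverKO livers, Acot3 read 5.70, 5.61 and 5.69 with vehicle and 6.19, 6.67 and 6.00 with GW4064, a difference of 0.62 (SE 0.331, adjusted p = 1). The kept probe set of Acot3 is of a kind whose probes can match several transcripts, so its values are uncertain as to gene.

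**Figure D1:**
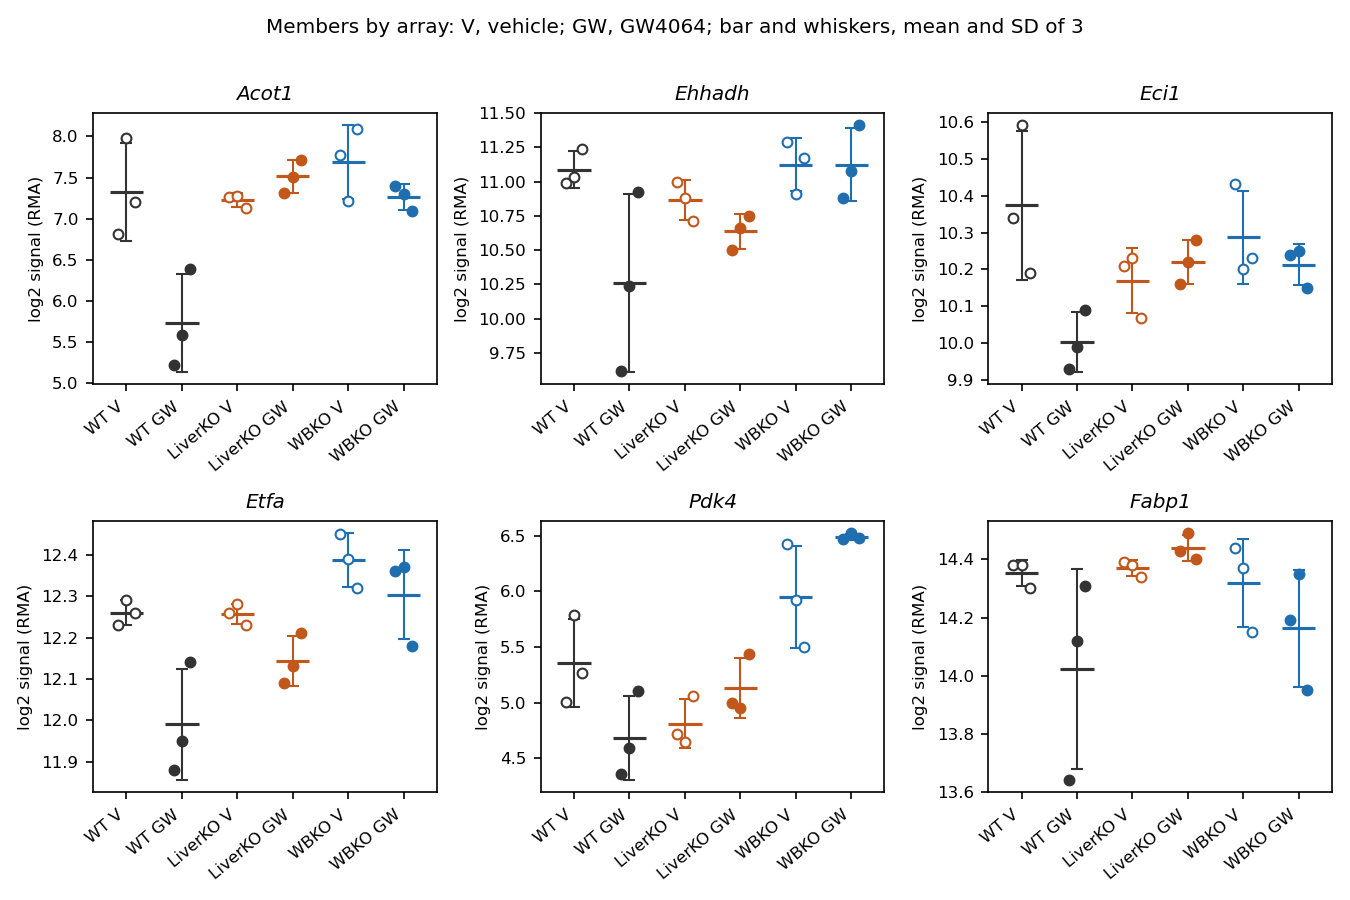
Log2 signal of Acot1, Ehhadh, Eci1, Etfa, Pdk4 and Fabp1 in the 18 arrays by genotype and treatment. Open points are vehicle (V) and filled points GW4064 (GW), with the mean and SD of 3 arrays; axes do not start at 0. In WT livers with GW4064, Acot1 sits between 5.22 and 6.39, below all other arrays, and Ehhadh spreads from 9.62 to 10.92.

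Among the peroxisomal genes, 0 of 6 passed the adjusted test in WT livers and 3 of 6 were past an unadjusted p of 0.05, 2 lower and 1 higher, against 12.6% of all genes. Ehhadh, the bifunctional enzyme of the peroxisomal cycle and a well-known PPARα target, was 10.99, 11.03 and 11.24 with vehicle and 9.62, 10.24 and 10.92 with GW4064. The difference was -0.82 (SE 0.225, adjusted p = 0.15). The 3 arrays with GW4064 were all lower, but array 1, which stood apart, was the lowest and array 3 came close to the vehicle level. Without the third array the difference was -1.16 (adjusted p = 0.00247), and without array 1 it was -0.50 (adjusted p = 0.608). Over all alternatives it ran from -1.16 to -0.50. Leaving out the third array also raised the number of all genes that passed from 24 to 268. Hsd17b4, the D-bifunctional enzyme, differed by -0.21 (SE 0.083, adjusted p = 0.302), and its second probe set by -0.08. Eci2, an isomerase for unsaturated chains, lay higher with GW4064, by 0.44 (SE 0.153, adjusted p = 0.236). Acaa1a, the peroxisomal thiolase, differed by 0.01, Ech1, a dienoyl-CoA isomerase, by -0.03, and Decr2, a dienoyl-CoA reductase, by 0.15. The probe sets of Acaa1a, Hadh and Acaa2 are also of a kind that can match several transcripts, and other probe sets of Acaa1a are shared with a paralog and were not used.

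Within the mitochondrial pathway, 0 of 18 genes passed the adjusted test in WT livers with GW4064, 5 of 18 were past an unadjusted p of 0.05 (4 lower, 1 higher), against 12.6% of all genes, and the median difference was -0.09. In the carnitine shuttle, Cpt1a, the rate-limiting outer-membrane enzyme, differed by 0.17 (95% interval -0.12 to 0.46), Cpt2, its inner-membrane partner, by -0.13 (-0.31 to 0.05) and Slc25a20, the carnitine carrier, by 0.31 (0.02 to 0.60, adjusted p = 0.366). Crat, carnitine acetyltransferase, showed the largest difference in the class, -0.40 (SE 0.211, adjusted p = 0.455), from 6.77, 7.15 and 6.86 with vehicle to 6.95, 6.03 and 6.58 with GW4064. The arrays of Crat overlapped. Its second probe set differed by -0.04.

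The acyl-CoA dehydrogenases for short, medium, long and very long chains, Acads, Acadm, Acadl and Acadvl, differed by -0.11, -0.05, 0.03 and 0.02 in WT livers. Acads did not overlap between the groups (9.28, 9.45 and 9.26 with vehicle, 9.24, 9.22 and 9.21 with GW4064), although the gap between the nearest arrays was small and the adjusted p was 0.699. Hadha and Hadhb, the 2 subunits of the trifunctional protein, differed by -0.20 (adjusted p = 0.382) and -0.13, Hadh, the short-chain hydroxyacyl-CoA dehydrogenase, by -0.14, and Acaa2, the mitochondrial thiolase, by -0.20 (SE 0.073, adjusted p = 0.259). The other 2 probe sets of Acaa2 gave -0.19 and -0.23, and the second one of Hadhb gave 0.03. Hadhb, Decr1 and Bdh1 were those whose probe sets differed in sign in WT livers, and the other 12 of 15 genes with several probe sets had the same sign throughout. Probe sets shared a sign in 8 of 15 genes in LiverKO livers with GW4064, in 11 of 15 in WBKO livers and in 7 of 15 for the difference of those effects.

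Eci1, the mitochondrial isomerase for unsaturated chains, read 10.34, 10.59 and 10.19 with vehicle and 9.93, 9.99 and 10.09 with GW4064 in WT livers, a difference of -0.37 (SE 0.096, adjusted p = 0.131). Etfa, a subunit of the flavoprotein that takes up electrons from the dehydrogenases, read 12.23, 12.29 and 12.26 with vehicle and 11.88, 11.95 and 12.14 with GW4064, a difference of -0.27 (SE 0.078, adjusted p = 0.184). Both were lower in 3 of 3 arrays and neither passed. Etfa passed without the third array with GW4064 (-0.35, adjusted p = 0.0327), as did 268 of all genes, and not without array 1 (-0.22, adjusted p = 0.652). Its partner subunit Etfb differed by -0.06 (-0.21 to 0.08), Etfdh, the next carrier in line, by -0.08 (-0.27 to 0.10), and Decr1, the mitochondrial dienoyl-CoA reductase, by 0.05. Bdh1, which makes the ketone body 3-hydroxybutyrate, differed by 0.17 (-0.12 to 0.45).

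Of the 5 other PPARα targets, 3 were past an unadjusted p of 0.05 in WT livers, all lower, against 12.6% of all genes, and 0 passed after adjustment. Pdk4, the kinase that turns off pyruvate dehydrogenase in fasting, was 5.01, 5.79 and 5.27 with vehicle and 4.36, 4.59 and 5.10 with GW4064, a difference of -0.67 (SE 0.232, adjusted p = 0.236), and its groups overlapped. Fabp1, the liver fatty acid binding protein, was 14.38, 14.38 and 14.30 with vehicle and 13.64, 14.12 and 14.31 with GW4064 (-0.33, SE 0.135, adjusted p = 0.311). Its second probe set differed by -0.14. Fgf21, the fasting hormone of the liver, was 5.17, 5.46 and 5.15 with vehicle and 5.06, 4.90 and 4.94 with GW4064 (-0.29, SE 0.134, adjusted p = 0.378). Both Fgf21 and Pdk4 were among the 40% dimmest genes, and no detection call comes with the values. Vnn1, a pantetheinase, was 9.11, 9.72 and 7.87 with vehicle and 9.59, 9.60 and 9.58 with GW4064, and its difference of 0.69 was the largest upward one of these genes (SE 0.356, adjusted p = 0.445). The vehicle arrays of Vnn1 lay on both sides of the treated ones.

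The order of the 3 WT arrays with GW4064 was the same in several of these genes. Array 1 was the lowest and array 3 the highest in Acot1, Ehhadh, Eci1, Etfa, Pdk4, Fabp1, Acaa2 and Hadh. The acute-phase median was highest in array 1 (1.14) and lowest in array 3 (0.11). Hadha, Acads, Fgf21 and Crat did not have this order. In Slc25a20 and Eci2, which lay higher with GW4064, array 1 was the highest (11.52 and 10.83) and array 3 the lowest (10.86 and 10.26). Cpt1a, Cpt2, Acads, Acadl, Acadvl, Decr1, Acaa1a, Ech1, Acot2, Acot8, Acot12 and Cyp4a14 had this reverse order as well. More of these genes thus had the reverse order than the first one, and the share of all genes with either was not counted. These orders describe 3 arrays, and their part in the differences was not tested.

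In LiverKO livers, GW4064 left no gene of the 35 past the adjusted test, and most differences were small and above 0. The adjusted test called 0% of all genes. At an unadjusted p of 0.05, limma gave 2 of 35, both higher, against 5.02% of all genes, and the methods' t-test after Benjamini-Hochberg gave 0. Of the 35 differences, 27 were above 0, 15 of them among the 18 mitochondrial genes, against 6097 of all 12394 genes. The median was 0.08, against 0.00 for all genes. The arrays did not overlap in 9 of 35 genes (25.7%), against 12.2% of all genes, 8 of them higher with GW4064 (Acadm, Hadha, Acaa2, Bdh1, Acot1, Acot3, Fabp1 and Vnn1) and Etfa lower. Of the 15 genes with several probe sets, the sign was shared in 8 here and differed in Acaa2, Acot12, Crat, Fabp1, Hadh, Hadhb and Hsd17b4. Fabp1 differed by 0.07 on the probe set used and by -0.05 on the other. The summed hepatocyte markers (9 of 10 measured) were also higher without overlap, 17.36 to 17.39 with GW4064 against 17.27 to 17.33 with vehicle, and their part was not tested. Bdh1 was 10.17, 10.17 and 9.98 with vehicle and 10.54, 10.63 and 10.51 with GW4064 (0.45, SE 0.137, adjusted p = 0.721; 0.02 on its other probe set), and Fgf21 was 5.08, 4.70 and 5.17 with vehicle and 5.52, 5.17 and 5.29 with GW4064 (0.34, SE 0.134, adjusted p = 0.925). The treated arrays of Bdh1 were the 3 highest of all 18.

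In WBKO livers, 0 of 35 genes passed the adjusted test, as did 0% of all genes, and 1 of 35 was past an unadjusted p of 0.05, against 6.25% of all genes. The methods' t-test after Benjamini-Hochberg gave 0. The median difference was -0.06, against -0.01 for all genes, with 23 of 35 below 0, against 6709 of all 12394 genes. The arrays of 1 gene did not overlap (2.9%), against 10.3% of all genes. That gene was Pdk4, at 6.42, 5.92 and 5.50 with vehicle and 6.47, 6.52 and 6.48 with GW4064, a difference of 0.54 (SE 0.232, adjusted p = 0.785). The kinase thus lay higher with GW4064 in WBKO livers and lower in WT livers, by differences that did not pass in either.

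**Figure D2:**
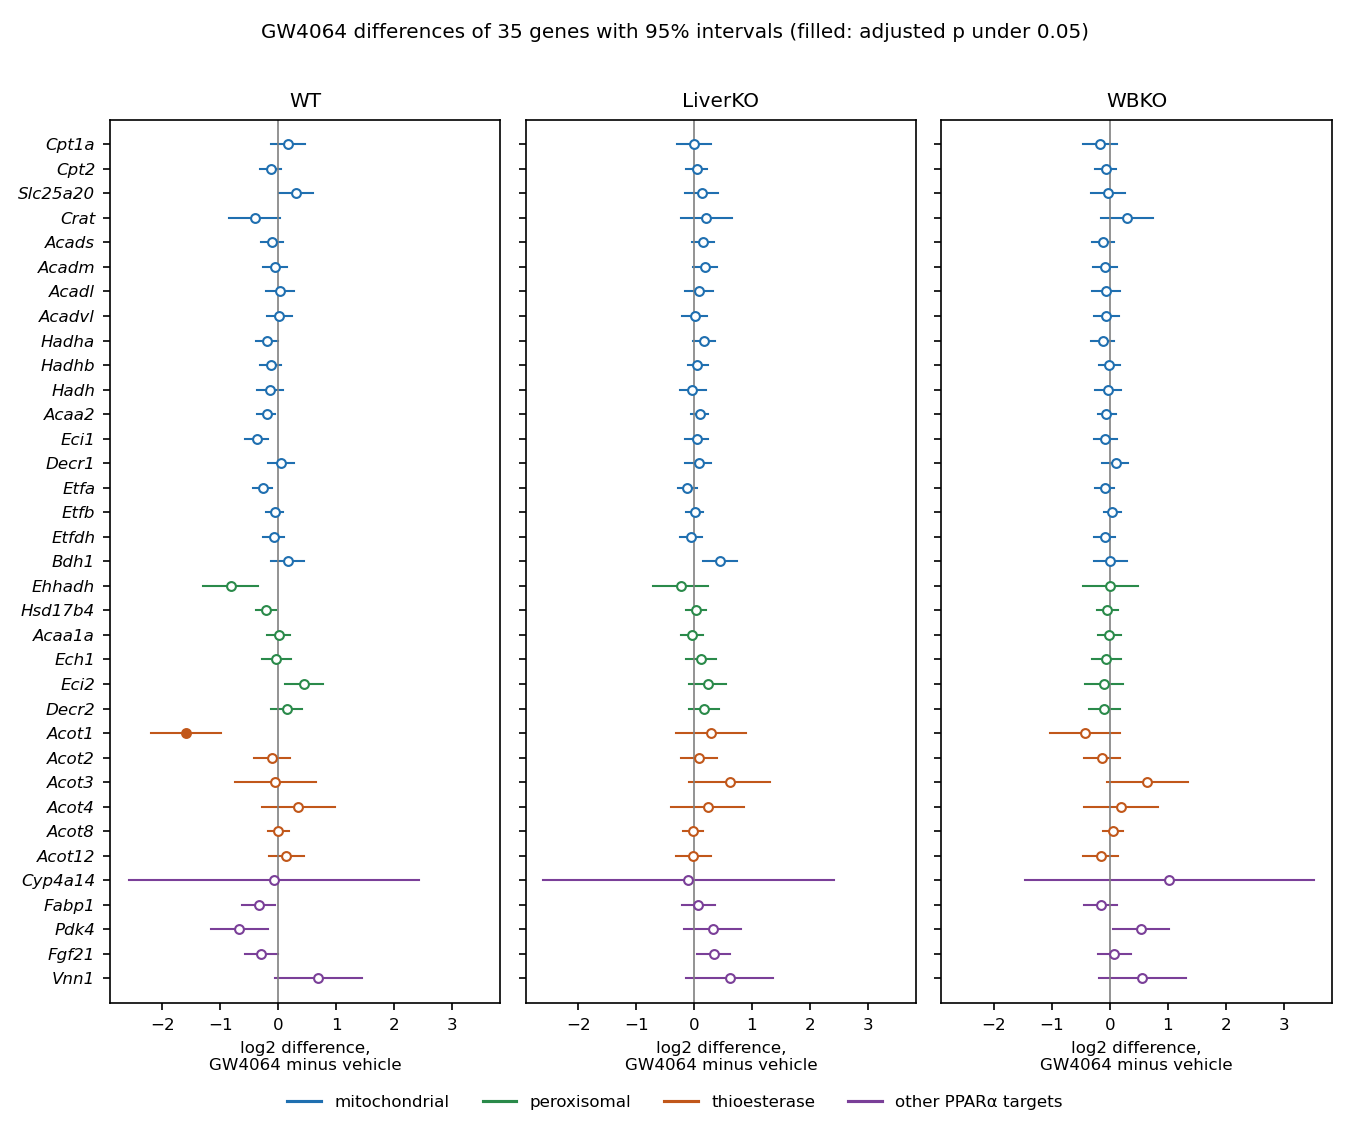
Log2 difference between GW4064 and vehicle for the 35 genes in WT, LiverKO and WBKO livers, with 95% intervals from limma, coloured by class; a filled point passed an adjusted p of 0.05. Acot1 in WT livers, at -1.60, is the one filled point, and the interval of Cyp4a14 is the widest in each panel.

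Whether the GW4064 effect differed between genotypes was tested directly. None of the 3 differences of effects had a gene past adjustment: limma called 0 of 35 genes and 0% of all genes in each, and the methods' t-test after Benjamini-Hochberg gave 0 in each. Between WT and LiverKO livers, 7 of 35 were past an unadjusted p of 0.05, all more negative in WT, against 7.46% of all genes. These were Acot1, Pdk4 (-0.99, SE 0.328, adjusted p = 0.546), Fgf21 (-0.63, SE 0.19, adjusted p = 0.487), Eci1 (-0.42), Fabp1 (-0.40), Hadha (-0.38) and Acaa2 (-0.30). The median of the 35 was -0.16, with 25 below 0, against a median of 0.00 for all genes, with 6205 of 12394 below 0. Acot1, Hadha and Acaa2 lay lower with GW4064 in WT livers and higher in LiverKO livers, without overlap in either genotype on the probe sets used. Of all genes, 14.7% did not overlap in WT livers and 12.2% in LiverKO livers. The share that did so in both genotypes in opposite directions was not counted. In LiverKO livers Acaa2 differed by 0.10 on the probe set used and by 0.12 and -0.03 on its other ones, so its direction there rests on the probe set. Hadha went from 10.34, 10.53 and 10.48 to 10.28, 10.28 and 10.19 in WT livers, and from 10.45, 10.52 and 10.42 to 10.57, 10.72 and 10.63 in LiverKO livers. Between WT and WBKO livers, 6 of 35 were past an unadjusted p of 0.05, 5 more negative in WT, against 8.21% of all genes, and the median was -0.05, against 0.01 for all genes. They were Pdk4 (-1.22, SE 0.328, adjusted p = 0.424), Acot1, Ehhadh (-0.83, SE 0.318, adjusted p = 0.532), Crat (-0.70, SE 0.299, adjusted p = 0.563), Eci1 (-0.29) and, in the other direction, Eci2 (0.54, SE 0.216, adjusted p = 0.55). Between LiverKO and WBKO livers, Bdh1 (0.44) and Hadha (0.30) were past an unadjusted p of 0.05, 2 of 35 against 4.87% of all genes. The 3 differences share groups, so they are not independent of each other.

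With vehicle, none of the 35 genes passed between either knockout and WT, and the 2 knockouts differed in Pdk4, which was higher in WBKO livers. In LiverKO against WT livers, 0 of 35 genes passed the adjusted test, against 0.879% of all genes, and 6 of 35 were past an unadjusted p of 0.05, against 12.6%, with 2 higher and 4 lower. In WBKO against WT livers, 0 of 35 passed, against 1.14% of all genes, and 1 of 35 was past an unadjusted p of 0.05, against 13.3%. The methods' t-test after Benjamini-Hochberg gave 0 in both. In WBKO against LiverKO livers, 1 of 35 passed, against 0.678% of all genes, and 3 of 35 were past an unadjusted p of 0.05, against 12.2%. The medians of the 35 differences were -0.06, -0.04 and 0.06 in this order, against -0.01 for all genes in each. In the same order, the arrays did not overlap in 14.3%, 5.7% and 14.3% of the 35 genes, against 20.3%, 19.6% and 21.4% of all genes. Each of the 3 groups with vehicle enters 2 of these comparisons, and the WT vehicle arrays are also those of the GW4064 comparison.

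Pdk4 with vehicle was 4.72, 4.65 and 5.06 in LiverKO, 5.01, 5.79 and 5.27 in WT and 6.42, 5.92 and 5.50 in WBKO livers. WBKO livers were higher than LiverKO livers by 1.14 (SE 0.232, 2.2-fold, adjusted p = 0.0399), and these groups did not overlap. Against WT, LiverKO livers differed by -0.55 (adjusted p = 0.331) and WBKO livers by 0.59 (adjusted p = 0.269), so WT lay between the knockouts and neither step passed. The call was lost when any 1 array of either group was left out other than array 3 of WBKO (adjusted p = 0.0743 to 0.168). With GW4064, Pdk4 was 4.36 to 5.10 in WT, 4.95 to 5.44 in LiverKO and 6.47 to 6.52 in WBKO livers. Summed stellate cell markers were also higher in WBKO livers, 11.40 to 11.45 with vehicle against 10.79 to 10.98 in LiverKO, as were the endothelial markers (10.86 to 11.01 against 10.73 to 10.78) and the hepatocyte markers (17.34 to 17.38 against 17.27 to 17.33), while the summed acute-phase genes were lower (16.82 to 16.91 against 16.99 to 17.15). Their part was not tested.

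Eci2 and Acadm came nearest to the threshold in LiverKO livers and were chosen for full values after these were seen. Eci2 with vehicle was 10.58, 10.89 and 10.64 in LiverKO livers, above all of 10.09, 10.42 and 9.88 in WT and of 10.49, 10.29 and 10.17 in WBKO. The difference from WT was 0.57 (SE 0.153, adjusted p = 0.0939), and WBKO minus LiverKO was -0.38 (adjusted p = 0.299). Acadm, the medium-chain dehydrogenase, was 11.41, 11.50 and 11.41 in LiverKO livers, below all of 11.73, 12.00 and 11.70 in WT and of 11.78, 11.75 and 11.85 in WBKO. The difference from WT was -0.37 (SE 0.099, adjusted p = 0.0943), and WBKO minus LiverKO was 0.35 (adjusted p = 0.132). The isomerase and the dehydrogenase thus stood apart in LiverKO livers in opposite directions, and neither passed. Arrays did not overlap in 20.3% of all genes in LiverKO against WT livers and in 21.4% in WBKO against LiverKO livers. Without the 2 arrays that stood apart, Acadm passed in both comparisons (adjusted p = 0.0278 and 0.0472). Several other measures did not overlap between LiverKO and WT livers with vehicle: the summed macrophage markers (11.65 to 11.80 against 11.30 to 11.56), the summed acute-phase genes (16.99 to 17.15 against 16.85 to 16.92), the hepatocyte markers, and the 3′ minus 5′ log2 difference of beta-actin, a sign of RNA quality (1.01 to 1.14 against 0.90 to 1.0), while that of Gapdh overlapped (-0.08 to -0.02 against -0.09 to -0.01). Their part was not tested. Vnn1 differed in LiverKO livers by 1.15 (10.30, 10.36 and 9.48 against 9.11, 9.72 and 7.87 in WT, SE 0.356, adjusted p = 0.153), with overlap. Crat was 6.46, 6.60 and 6.28 in LiverKO livers, a difference of -0.48 from WT (SE 0.211, adjusted p = 0.36), and its second probe set gave -0.13. Eci1 differed by -0.20 (adjusted p = 0.397).

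**Figure D3:**
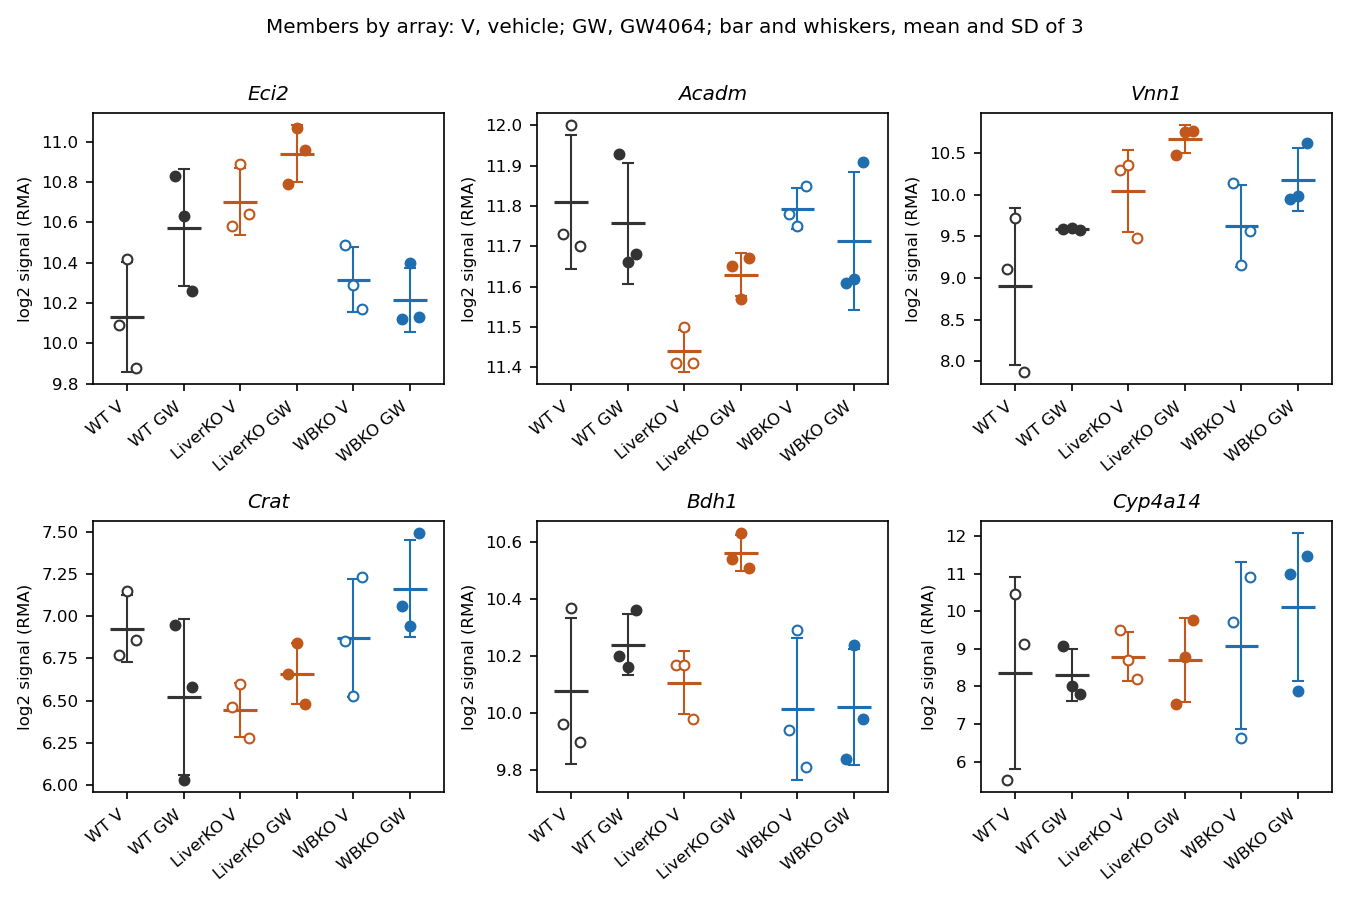
Log2 signal of Eci2, Acadm, Vnn1, Crat, Bdh1 and Cyp4a14 in the 18 arrays by genotype and treatment. Open points are vehicle (V) and filled points GW4064 (GW), with the mean and SD of 3 arrays; axes do not start at 0. Acadm in LiverKO livers with vehicle, 11.41 to 11.50, lies below every other array, and Cyp4a14 spreads from 5.51 to 10.45 within the WT vehicle group.

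The widest spread lay within groups. Cyp4a14, an omega hydroxylase of fatty acids and a strongly inducible PPARα target, was 5.51, 10.45 and 9.12 in WT livers with vehicle and 9.08, 8.00 and 7.80 with GW4064. It was 9.49, 8.70 and 8.19 in LiverKO livers with vehicle and 7.54, 8.79 and 9.76 with GW4064. It was 9.72, 6.63 and 10.91 in WBKO livers with vehicle and 11.00, 7.87 and 11.47 with GW4064. Its within-group SD of 1.704 ranked 6 of 12394 genes, and the 95% interval of its GW4064 difference in WT livers ran from -2.57 to 2.44, so that no change short of this could be seen. Vnn1 (0.506), Acot3 (0.470), Acot4 (0.424), Acot1 (0.404), Pdk4 (0.325), Ehhadh (0.314) and Crat (0.294) followed, at ranks 153 to 599. The least variable was Etfb, with an SD of 0.061. The median within-group SD was 0.154 for the 35 genes and 0.131 for all genes.

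**Figure D4:**
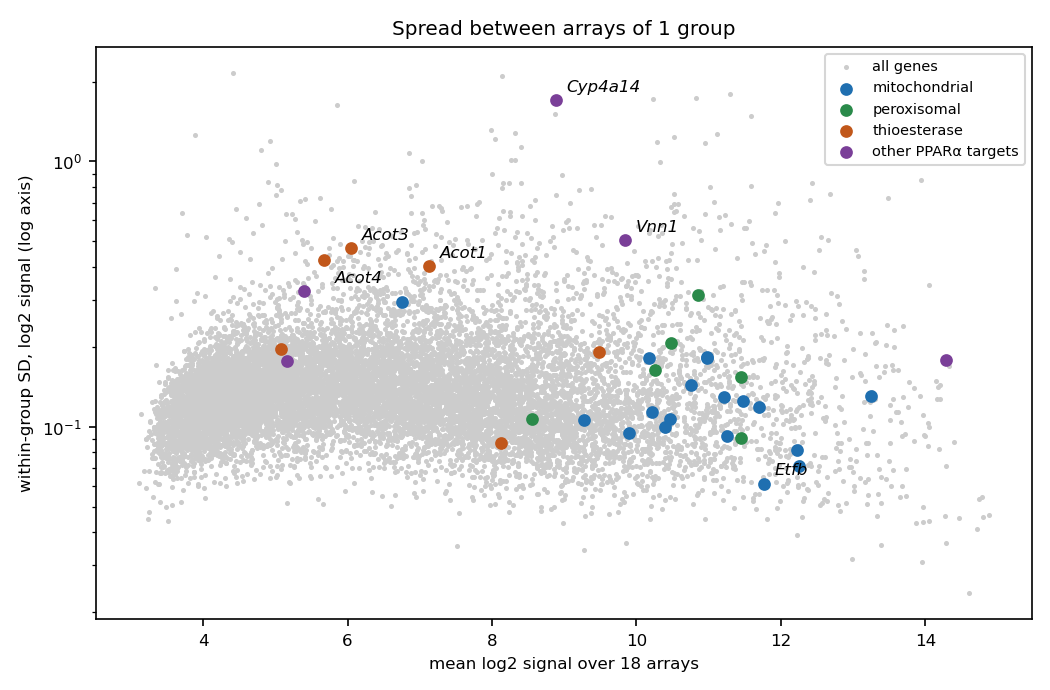
Within-group SD (log2 signal, on a log axis) against the mean log2 signal over 18 arrays, for all genes in grey and the measured genes coloured by class. Cyp4a14 lies at 1.704, far above the other genes of the list, and Etfb at 0.061 is the lowest of them.

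To see which genes varied with Cyp4a14 between livers of the same group, a slope on the Cyp4a14 level was fitted within groups for every other gene, a choice made after its spread was seen. The adjusted test called 0% of the 12393 genes, and 605 (4.88%) were past an unadjusted p of 0.05. Among the 34 other genes of this list, 4 (11.76%) were past it, all with slopes above 0: Crat, Acot1, Acot4 and Acadl. Cd36, which takes fatty acids into cells, had the smallest p of all (slope 0.308 log2 units per log2 unit, SE 0.0505, adjusted p = 0.212). Without the 2 arrays that lay farthest from their group in Cyp4a14, array 1 of WT and array 2 of WBKO with vehicle, its adjusted p was 0.0322, and without the 2 arrays that stood apart it was 0.155. Without the 2 farthest arrays the slope of Acot1 fell from 0.1252 to 0.0278 and that of Acadl from 0.0467 to 0.0339. Those of Crat and Acot4 rose, from 0.1027 to 0.1219 and from 0.1239 to 0.2202. None of these 4 genes passed the adjusted test with either pair of arrays left out.

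Of 74 other genes of the pathway that were listed, 64 were measured, and in WT livers with GW4064 0 passed the adjusted test and 9 (14.06%) were past an unadjusted p of 0.05, all lower, close to the 12.6% of all genes. In LiverKO livers with GW4064, 0 passed and 3 (4.69%) were past an unadjusted p of 0.05, against 5.02% of all genes, and in WBKO livers 0 and 7 (10.94%), against 6.25%. With vehicle, 17 of 64 (26.56%) were past an unadjusted p of 0.05 in LiverKO against WT livers, 4 higher and 13 lower, against 12.6% of all genes, and 1 of 64 (1.56%) passed after adjustment, against 0.879%. It was Pecr, a peroxisomal enoyl-CoA reductase, which was lower in LiverKO livers by a difference of -0.51 (SE 0.106, 1.43-fold lower, adjusted p = 0.026), without overlap. In WBKO against WT livers 0 passed and 11 (17.19%) were past an unadjusted p of 0.05, against 13.3%, and Pecr differed by -0.36 (adjusted p = 0.131). In WBKO against LiverKO livers 0 passed and 15 (23.44%) were past an unadjusted p of 0.05, 9 higher and 6 lower, against 12.2%. The transcript of the receptor itself, Ppara, differed by 0.05 (SE 0.193, adjusted p = 0.955) in WT livers with GW4064, a gene singled out after its values were seen.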

How the data were processed

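Liver RNA of 18 mice was hybridised to 1 array each. The authors normalised the arrays with RMA, per the labels' processing notes (its version is not given in the sources used here), and deposited log2 values per probe set, used as they stand. The deposited probe sets belong to a 3′ array and not to the one the methods name, so names come from the platform annotation: 20393 of 22690 probe sets had 1 symbol, 691 several and 1606 none, and 20364 matched GRCm38.p6 by gene identifier. RMA had set the array medians to between 5.96 and 6.00, no detection call comes with the values, and a probe set's level cannot be set against another's.

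limma 3.58.1 (R 4.3.3) was fitted to 12394 genes with a mean for each of 6 groups (12 residual degrees of freedom), two-sided, with Benjamini-Hochberg adjustment over all genes and a threshold of 0.05, and was tested on simulated data. A second rule was an unadjusted p under 0.05 with 1.5 fold. Groups came from the labels. The p-values measure the spread between the livers of a group, and 3 arrays per group limit the precision. Genes given in full were those past either rule in any comparison and, in each class, the largest difference in WT livers with GW4064; the report names those added after their values were seen. The genes and lists were chosen with earlier results of these data known. Alternatives were fits on the compared groups, another prior, 2 rescalings, a filter on dim genes, other uses of probe sets, the replicate block, each array left out, the methods' t-test and, added after seeing the data, leaving out 2 arrays. Plots were drawn with matplotlib 3.10.9 in Python 3.11.15.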

Additional observations from a re-analysis of the deposited data

How the results depend on the processing

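Of the 40 log2 differences of single genes past an unadjusted p of 0.05, 0 changed sign over 720 alternatives. Of these alternatives, 6 moved past the adjusted threshold and 16 lost it, the latter all for Acot1 in WT livers and Pdk4 between knockouts. Fits on the compared groups, another prior, the dim filter, all probe sets, the replicate block and the t-test keep the group means. No sign could change in those, and differences with a larger p were not followed in this way. The count of genes called of the 35 in WT livers with GW4064 was 1, and was 0 on the compared groups alone, with a trended and robust prior, by the methods' t-test after Benjamini-Hochberg and without the 2 arrays that stood apart. It ran from 0 to 3 with each array left out, being 3 (Acot1, Ehhadh and Etfa) without array 3 with GW4064 and 0 without any other. Between LiverKO and WT livers it was 0, and was 1 with the mean of probe sets, with the replicate block (Eci2, adjusted p = 0.042) and without the 2 arrays (Acadm, adjusted p = 0.0278). Between WBKO and LiverKO livers it was 1, and was 0 with the trended prior, by the methods' t-test after Benjamini-Hochberg and without the 40% dimmest genes, which leaves out Pdk4 itself. It was 2 without the 2 arrays (Pdk4 and Acadm, the latter at adjusted p = 0.0472), and 0 to 1 with each array left out. For the effect in WT minus LiverKO it was 0, and 0 to 1 with each array left out (Acot1, adjusted p = 0.00939, without array 3 of WT with GW4064). At 1.5 fold and an unadjusted p under 0.05, the methods' t-test gave 1 in WT livers with GW4064, where limma gave 3. With the same thresholds it gave 1 in LiverKO with GW4064 and 1 between WBKO and LiverKO livers with vehicle. For the differences of effects it gave 3 in WT minus LiverKO, 1 in WT minus WBKO and 1 in LiverKO minus WBKO. The causes were not tested.

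Over all genes, 24 were called in WT livers with GW4064, against 0 on the compared groups alone, 1 to 268 with each array left out (268 without array 3 with GW4064), 3 without the 2 arrays, 11 with the trended prior, 12 with the mean of probe sets, and 0 by the methods' t-test after Benjamini-Hochberg and 65 at its own thresholds. The counts were 109, 141 and 84 for LiverKO against WT, WBKO against WT and WBKO against LiverKO, 218, 266 and 134 without the 2 arrays, and 37 to 89, 56 to 101 and 3 to 23 with each array left out; by the t-test after adjustment they were 1, 5 and 0, and the third was 184 on the compared groups alone, 53 with the trended prior and 166 at the t-test's own thresholds. Where 0 genes were called, alternatives gave at most 4, other than those t-test thresholds (11 to 140) and, without array 3 of WT with GW4064, 50 and 22 for the effect in WT minus LiverKO and minus WBKO. Replicate numbers were shared by the groups. Over 45 pairs with the same number, deviations correlated between -0.23 and 0.34 (median 0.07), with 13 above 0.1. Over 90 pairs with different numbers they correlated between -0.32 and 0.24 (median -0.02), with 12 above 0.1. On average, 12 of 18 arrays correlated best with their own number. Whether the numbers pair the arrays was not tested. Apart from LiverKO against WT, the replicate block changed no count of the 35 genes.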
